A study of Mus with 17 samples.

Results

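The circadian clock transcripts described here are 6 Ensembl transcripts, picked by identifier, of 39614 transcripts listed for every library of the series. Earlier results of these data were known when the 6 were chosen. They are Arntl (also called Bmal1, ENSMUST00000047321), Per1 (ENSMUST00000021271), Per2 (ENSMUST00000069620), Cry1 (ENSMUST00000020227), Nr1d1 (also called Rev-erb alpha, ENSMUST00000064941) and Dbp (ENSMUST00000080885). All 6 were listed in all 17 libraries and all 6 were among the 29983 transcripts that passed the filter on low values, which asked for 5 or more libraries at 1 or higher. The names come from the identifier list that defines the set, since the files hold no gene names, and the values are of single transcripts, not of whole genes.

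Wild-type mice of the inbred strain C57BL/6 were treated for 42 days, and RNA was taken from their abdominal aorta. The AngII+neferine group (n = 6) received angiotensin II at 500 ng/kg/min together with neferine, a lotus alkaloid, at 1 mg/kg/day. The AngII group (n = 6) received the same dose of angiotensin II, the vasoconstrictor end product of the renin-angiotensin system, with double distilled water in place of neferine. The Control group (n = 5) received saline and double distilled water. The study asked how neferine acts on vessels under angiotensin II and which genes differ between the groups. The labels do not give the hour of dissection or the sex and age of the animals, and they do not say whether a library is from 1 animal, so p-values measure the spread between these libraries.

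The mammalian clock is a loop of transcription factors that runs in most cells, vessel wall cells included. ARNTL pairs with CLOCK and switches on the Per, Cry, Nr1d1 and Dbp genes. PER and CRY proteins then block that pair, and NR1D1 represses Arntl, so that in mouse tissues Arntl RNA is usually high when Dbp and Nr1d1 RNA are low. In the vasculature the clock is known for daily rhythms of blood pressure and vascular tone.

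The files give a linear abundance signal per transcript whose unit is not named, and the read depth behind it is unknown because they hold no counts. Column totals lay between 392615 and 569873, and 4.39% to 16.4% of the shared transcripts were listed at 0 in a library. Libraries standing apart were AngII replicate 6, whose Spearman rho with the other libraries had a median of 0.455 (0.606 to 0.680 in the others), and AngII replicate 2 and AngII+neferine replicate 1, in which the 10 highest transcripts took 31.0% and 29.0% of the signal. The neferine libraries were deposited with a different list of transcripts from that of Control and AngII, and this difference in the files and the neferine treatment cannot be told apart. In whole tissue, fewer cells of a type and less RNA per cell cannot be told apart. The tissue label and the other clock genes could not be looked up without gene names.

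Dbp and Arntl were the clock transcripts with an unadjusted limma p under 0.05 against Control in both angiotensin II groups, and they lay on opposite sides. For Arntl in AngII this p was at the edge, under 0.05 in 12 of the 27 other settings tried, where Dbp in AngII was under it in all 27. Mean Dbp was 2.36 times its Control level in AngII and 2.04 times in AngII+neferine, and median Arntl was 1.70 in AngII and 1.38 in AngII+neferine, against 4.86 in Control. None of the 6 transcripts passed the test after adjustment over all transcripts in any comparison. Of all 29983 tested, 0% passed for AngII against Control, 0% for AngII+neferine against AngII and 0.0367% for AngII+neferine against Control. In the same order, 7.25%, 5.22% and 8.74% had an unadjusted limma p under 0.05. Cry1 was higher in AngII+neferine in 29 of 30 pairings with Control libraries, again without passing. Nr1d1 was lower in AngII+neferine than in AngII with an overlap of the groups, and Per1 and Per2 had an unadjusted limma p above 0.05 in every comparison.

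**Figure D1:**
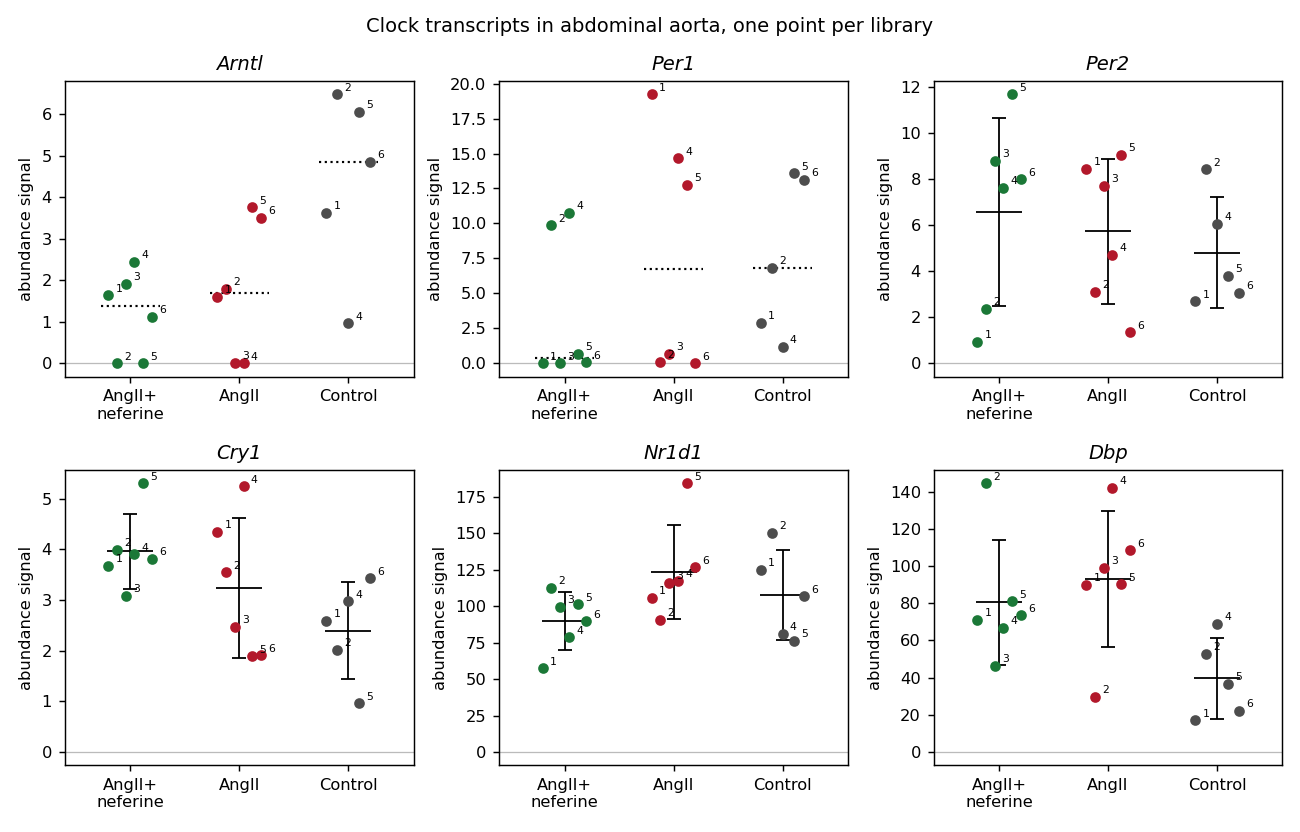
Abundance signal (vertical axis, linear, from 0) of the 6 clock transcripts in each library, with points numbered by replicate for AngII+neferine (n = 6), AngII (n = 6) and Control (n = 5). Bars give the mean ± SD, and dotted lines give the median for Arntl and Per1, which were listed at 0 in some libraries. Dbp sits low and Arntl high in Control, and Per1 ranges from 0 to 19.2.

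Arntl encodes the activator at the head of the loop. Its signal was 1.64, 0, 1.91, 2.44, 0 and 1.12 in AngII+neferine replicates 1 to 6, and 1.60, 1.79, 0.00477, 0, 3.76 and 3.51 in AngII replicates 1 to 6. In Control replicates 1, 2, 4, 5 and 6 it was 3.63, 6.48, 0.960, 6.06 and 4.86. It was therefore listed at 0 in 2 AngII+neferine libraries, in 1 AngII library and in no Control library, and it was under 1 in Control replicate 4. The median was 1.38 in AngII+neferine, 1.70 in AngII and 4.86 in Control, and the 2 angiotensin II groups overlapped. Between AngII and Control, the AngII library was the higher in 5 of the 30 pairings of a library of each group, and the log2 fold change was -1.08 ± 0.501 (SE; 95% interval -2.14 to -0.017; limma, unadjusted p = 0.0468, adjusted p = 0.684). The two-sided exact permutation test gave p = 0.0866. Between AngII+neferine and Control the first was the higher in 4 of 30 pairings, with a log2 fold change of -1.32 ± 0.501 (SE; limma, unadjusted p = 0.0175, adjusted p = 0.422) and an exact permutation p of 0.0281. A smaller pseudocount of 0.1 moved these values to -2.11 ± 1.17 and -2.46 ± 1.17 (SE), with unadjusted p of 0.089 and 0.0506 and adjusted p of 0.764 and 0.612 from limma. AngII+neferine and AngII differed by -0.25 ± 0.478 (SE; limma, adjusted p = 0.979).

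The Per and Cry transcripts encode the repressors that close the loop. Per1 was listed at 0 or under 1 in 4 AngII+neferine libraries, at 0, 0, 0.675 and 0.0568, and was at 9.86 and 10.7 in replicates 2 and 4. AngII replicates 1, 4 and 5 were at 19.2, 14.6 and 12.8, whereas replicates 2, 3 and 6 were at 0.127, 0.677 and 0. In Control it was at 2.91, 6.81, 1.19, 13.6 and 13.1. Both angiotensin II groups thus held libraries with high values and libraries with almost none, while every Control library was above 1. The spread of Per1 around the group means, an SD of 1.73 on the log2 scale, was larger than that of 97.6% of the tested transcripts. Its log2 fold changes were -0.58 ± 0.971 for AngII against Control, -0.86 ± 0.926 for AngII+neferine against AngII and -1.45 ± 0.971 for AngII+neferine against Control (SE; limma, adjusted p = 0.902, 0.958 and 0.717), and -1.45, -1.49 and -2.94 with a pseudocount of 0.1. Without AngII replicates 2 and 6 and AngII+neferine replicate 1, the first of these turned to 0.46 ± 0.967 (SE; limma, adjusted p = 0.939). AngII replicate 6 and AngII+neferine replicate 1, in which Per1 was at 0, had 16.4% and 10.1% of all shared transcripts listed at 0, the highest shares of the series. AngII+neferine replicate 3, where Per1 was also at 0, had 7.51%, and Control replicate 4, where Per1 was at 1.19, had 10.05%. Whether these shares bear on Per1 was not tested.

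Per2 was found in every library. It lay between 0.933 and 11.7 (median 7.81) in AngII+neferine and between 1.34 and 9.07 (median 6.22) in AngII, and it was at 2.70, 8.44, 6.06, 3.81 and 3.07 in Control. The lowest values belonged to AngII+neferine replicate 1 and AngII replicate 6, both among the libraries standing apart. The 3 groups overlapped broadly, with means of 6.57 ± 4.09 (SD, n = 6) in AngII+neferine, 5.74 ± 3.15 (SD, n = 6) in AngII and 4.81 ± 2.41 (SD, n = 5) in Control. The log2 fold change was 0.13 ± 0.496 for AngII against Control, with a 95% interval of -0.92 to 1.18 (SE; limma, adjusted p = 0.965). It was 0.08 ± 0.473 for AngII+neferine against AngII and 0.21 ± 0.496 for AngII+neferine against Control (SE; limma, adjusted p = 0.996 and 0.935). The sign depended on single libraries: AngII against Control turned to -0.02 without AngII replicate 5, and AngII+neferine against AngII turned to -0.19 without AngII replicate 6.

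Cry1 was low, with an SD around the group means of 0.392 on the log2(value + 1) scale. Its highest signal was 1.72 times its lowest in AngII+neferine, 2.78 times in AngII and 3.57 times in Control. It lay between 3.08 and 5.31 (median 3.86) in AngII+neferine and between 1.89 and 5.25 (median 3.01) in AngII, and it was at 2.59, 2.02, 2.98, 0.960 and 3.43 in Control. The mean was 3.96 ± 0.735 (SD, n = 6) in AngII+neferine, 3.24 ± 1.38 (SD, n = 6) in AngII and 2.39 ± 0.955 (SD, n = 5) in Control. Control replicate 6 was the only Control library to exceed an AngII+neferine library, so that AngII+neferine was higher in 29 of 30 pairings. The log2 fold change between them was 0.59 ± 0.259 (SE; 95% interval 0.04 to 1.14; limma, unadjusted p = 0.0363, adjusted p = 0.531). A two-sided exact permutation test of this difference gave p = 0.00649, the smallest possible being 0.00216, and 0.251 after adjustment over all transcripts. The difference was 0.41, with an unadjusted limma p of 0.127, without Control replicate 5, the lowest library. AngII lay between the other groups and overlapped both, at 0.31 ± 0.259 against Control and 0.28 ± 0.247 for AngII+neferine against AngII (log2, SE; limma, adjusted p = 0.797 and 0.957). The AngII difference from Control was 0.13 without Control replicate 5 and 0.19 without AngII replicate 4.

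Nr1d1 encodes the nuclear receptor that represses Arntl. It lay between 57.4 and 113 (median 94.6) in AngII+neferine and between 90.8 and 184 (median 117) in AngII, and it was at 125, 150, 80.8, 76.2 and 107 in Control. It had the smallest spread around the group means of the 6, an SD of 0.363 on the log2 scale. The mean was 89.8 ± 19.6 (SD, n = 6) in AngII+neferine, 123 ± 32.2 (SD, n = 6) in AngII and 108 ± 30.9 (SD, n = 5) in Control. AngII+neferine was the higher in 4 of 36 pairings with AngII libraries, a log2 fold change of -0.45 ± 0.212 (SE; 95% interval -0.9 to -0.0035; limma, unadjusted p = 0.0484, adjusted p = 0.952). The two-sided exact permutation test gave p = 0.0325 before and 0.953 after adjustment. AngII replicate 5, at 184, and AngII+neferine replicate 1, at 57.4, were the ends of the range. The log2 fold change was -0.33 with either one of them left out (limma, unadjusted p = 0.13 without AngII replicate 5 and 0.123 without AngII+neferine replicate 1), and without AngII replicates 2 and 6 and AngII+neferine replicate 1 the log2 fold change was -0.41 ± 0.213 (SE; limma, unadjusted p = 0.0742, adjusted p = 0.746). Against Control, AngII was at 0.21 ± 0.222 and AngII+neferine at -0.25 ± 0.222 (log2, SE; limma, adjusted p = 0.841 and 0.800). With single libraries left out these lay between 0.08 (without AngII replicate 5) and 0.34 (without Control replicate 2), and between -0.36 (without Control replicate 5) and -0.11 (without Control replicate 2).

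Dbp encodes a transcription factor that passes the rhythm on to output genes. It lay between 46.4 and 145 (median 72.3) in AngII+neferine and between 29.8 and 142 (median 94.6) in AngII, and it was at 17.1, 52.8, 69.1, 36.6 and 22.3 in Control. The mean was 80.6 ± 33.5 (SD, n = 6) in AngII+neferine, 93.3 ± 36.6 (SD, n = 6) in AngII and 39.6 ± 21.6 (SD, n = 5) in Control. The ratio of means to Control was 2.04 in AngII+neferine and 2.36 in AngII. All AngII libraries but replicate 2 were above all Control libraries. That library, at 29.8, is the one with 31.0% of its signal in 10 transcripts. Whether this share bears on its Dbp signal was not tested. AngII was higher than Control in 27 of 30 pairings, a log2 fold change of 1.26 ± 0.403 (SE; 95% interval 0.41 to 2.11; limma, unadjusted p = 0.0064, adjusted p = 0.596). By rank of p it was 322 among the 29983 transcripts. The two-sided exact permutation test gave p = 0.0346 before and 0.698 after adjustment. Without AngII replicates 2 and 6 and AngII+neferine replicate 1 the log2 fold change was 1.54 ± 0.391 (SE; limma, adjusted p = 0.375).

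For Dbp with neferine, AngII+neferine was above Control in 27 of 30 pairings, with a log2 fold change of 1.10 ± 0.403 (SE; 95% interval 0.25 to 1.95; limma, unadjusted p = 0.0147, adjusted p = 0.412; unadjusted p = 0.0525 without Control replicate 1), and the two-sided exact permutation test gave p = 0.0238 before and 0.348 after adjustment. AngII+neferine differed from AngII by -0.16 ± 0.384 (SE; 95% interval -0.97 to 0.65; limma, adjusted p = 0.985). Both comparisons with Control use the Control libraries, so their like direction for Dbp and for Arntl is not independent. The difference between AngII+neferine and AngII was -0.46 without AngII replicate 2, -0.34 without AngII+neferine replicate 2, -0.02 without AngII+neferine replicate 3 and -0.013 without AngII replicate 4. Its interval is wide and does not show equal levels.

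**Figure D2:**
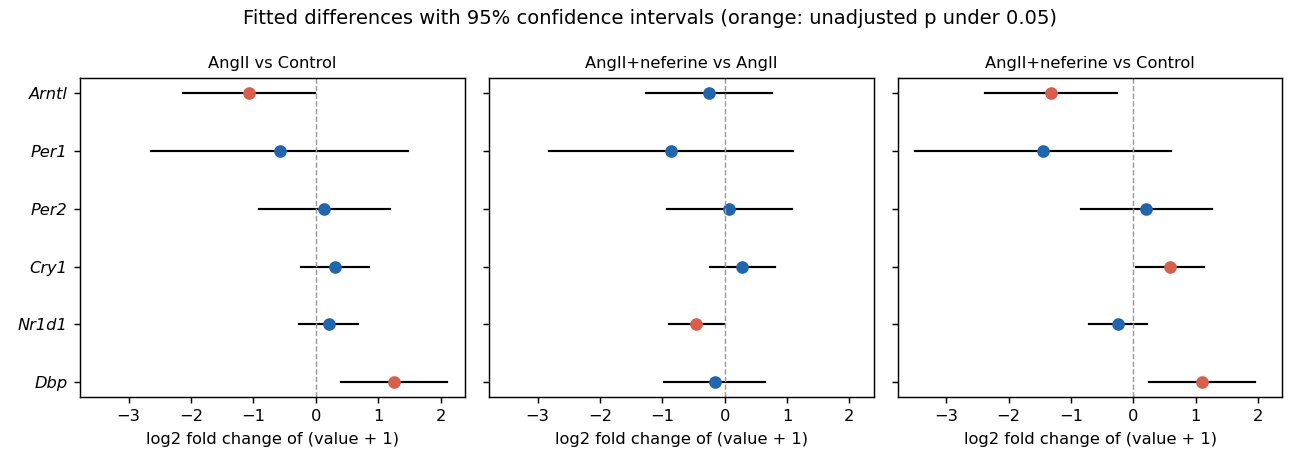
Log2 fold change of (value + 1) with its 95% confidence interval from limma (horizontal axis) for each of the 6 clock transcripts, in 3 panels for AngII over Control, AngII+neferine over AngII and AngII+neferine over Control. Orange points have an unadjusted p under 0.05; after adjustment over 29983 transcripts none passed.

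Counted over the set, limma called 0 of 6 clock transcripts between AngII and Control, against 0% of the 29983 tested. At an unadjusted p under 0.05 there were 2 of 6, Dbp higher and Arntl lower in AngII, where 7.25% of all tested transcripts had such a p. This count was 1 of 6, Dbp alone, by the exact permutation test, and 1 or 2 over all 27 alternatives. Between AngII+neferine and AngII it called 0 of 6, against 0% of all tested, with 1 of 6, Nr1d1, at an unadjusted p under 0.05, against 5.22%. Nr1d1 was under 0.05 in 13 of 27 alternatives, so this count was 0 or 1. Between AngII+neferine and Control it called 0 of 6, against 0.0367% of all tested. There 3 of 6 had an unadjusted p under 0.05, Dbp and Cry1 higher and Arntl lower with neferine, against 8.74%, and the count was 2 or 3 over the alternatives. The exact permutation test called 0 of 6, but it called 0 of all tested transcripts in each comparison. Its smallest possible p is 0.00216, so its 0 of 6 is no separate result. No clock transcript had groups without overlap, which 0.807%, 0.263% and 2.08% of the tested transcripts had in these comparisons. The median log2 fold change of the 6 was 0.17, -0.2 and -0.017 in the same order, beside -0.026, -0.0042 and -0.028 over all tested transcripts. With a set of 6, chosen with earlier results of these data known, these are descriptions. Without AngII replicates 2 and 6 and AngII+neferine replicate 1, limma again called 0 of 6 in each comparison, and 2, 0 and 3 of 6 had an unadjusted p under 0.05. The shares of all tested transcripts given above are from the fit with all libraries. The counts from this and the other alternatives have no share of their own beside them.

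The libraries were then read one by one, since clock transcripts are known to move in fixed relation to each other within a tissue. The difference between Dbp and Arntl on the log2(value + 1) scale was 5.30 ± 1.23 (SD, n = 6) in AngII+neferine, 5.21 ± 1.43 (SD, n = 6) in AngII and 2.87 ± 1.33 (SD, n = 5) in Control. Of the Control libraries, 4 lay between 1.96 and 2.85, under every library of both angiotensin II groups, which started at 3.47. The exception was Control replicate 4 at 5.16, which had the lowest Arntl and the highest Dbp of its group. The highest differences, 7.19 in AngII+neferine replicate 2 and 7.16 in AngII replicate 4, belonged to libraries with Arntl listed at 0 and the highest Dbp of their group. This difference was formed after the levels were seen and was not tested. It covers only Dbp and Arntl. Nr1d1 was at 0.21 in AngII and -0.25 in AngII+neferine against Control (log2), where Arntl was lower in both.

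**Figure D3:**
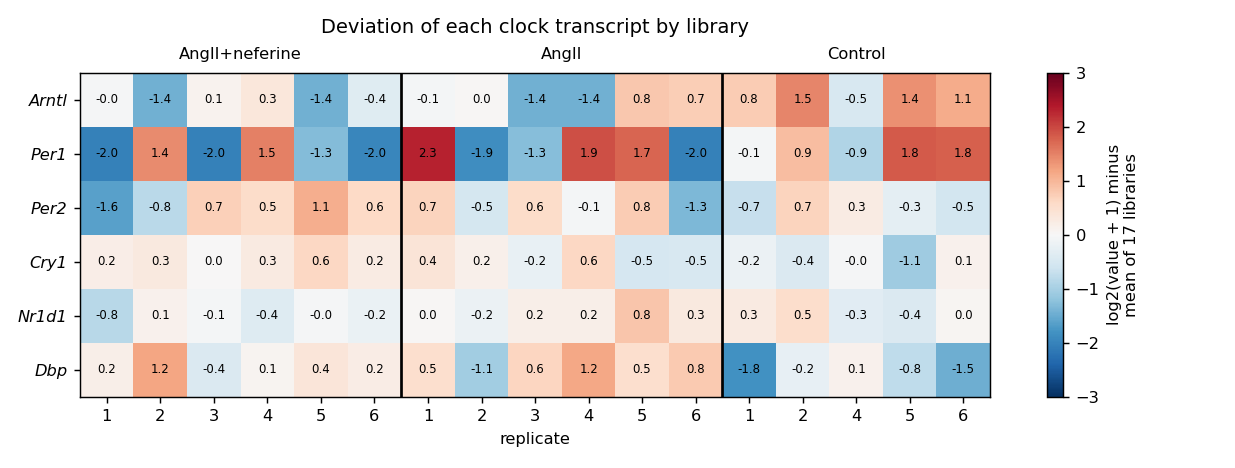
Deviation of each clock transcript from its mean over the 17 libraries on the log2(value + 1) scale (color and printed number), with libraries in columns by group and replicate and transcripts in rows. Per1 alternates between high and low libraries in the angiotensin II groups. Dbp is below its mean in Control replicates 1, 2, 5 and 6, and also in AngII replicate 2 and AngII+neferine replicate 3.

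Within groups, after the group means were removed, 0 of the 15 pairs of clock transcripts were correlated after adjustment over the 15. The strongest relation was negative, between Arntl and Cry1, with a Pearson r of -0.552 (permutation p = 0.0441, adjusted 0.661) and a Spearman rho of -0.635 (permutation p = 0.0196, adjusted 0.294) over 17 libraries. It was -0.543 in the 11 Control and AngII libraries and -0.702 in the 6 neferine libraries, and -0.388 without Control replicate 4 and AngII replicate 4, the 2 libraries farthest from the median of Arntl. Arntl and Dbp had an r of -0.427 (permutation p = 0.122, adjusted 0.819) and a rho of -0.352 (permutation p = 0.189, adjusted 0.917). This r was -0.322 in the Control and AngII libraries, -0.763 in the neferine libraries, which hold neither of the same 2 libraries, and -0.17 over all groups without them. Per2 and Nr1d1 had an r of 0.368 (permutation p = 0.164, adjusted 0.819) and a rho of 0.336 (permutation p = 0.211, adjusted 0.917). Here r was 0.259 in the Control and AngII libraries, 0.534 in the neferine libraries and 0.188 without AngII+neferine replicate 1 and AngII replicate 6. It was 0.117 without AngII+neferine replicate 1 alone, 0.445 without AngII replicate 6 alone and 0.331 without AngII replicate 2 alone. Without these 3 libraries standing apart it was 0.039. Among single libraries it depended most on AngII+neferine replicate 1. The other 12 pairs had r between -0.129 and 0.285. Among them, Arntl and Nr1d1 had an r of 0.090 over 17 libraries. It was 0.400 in the Control and AngII libraries and -0.611 in the neferine libraries.

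**Figure D4:**
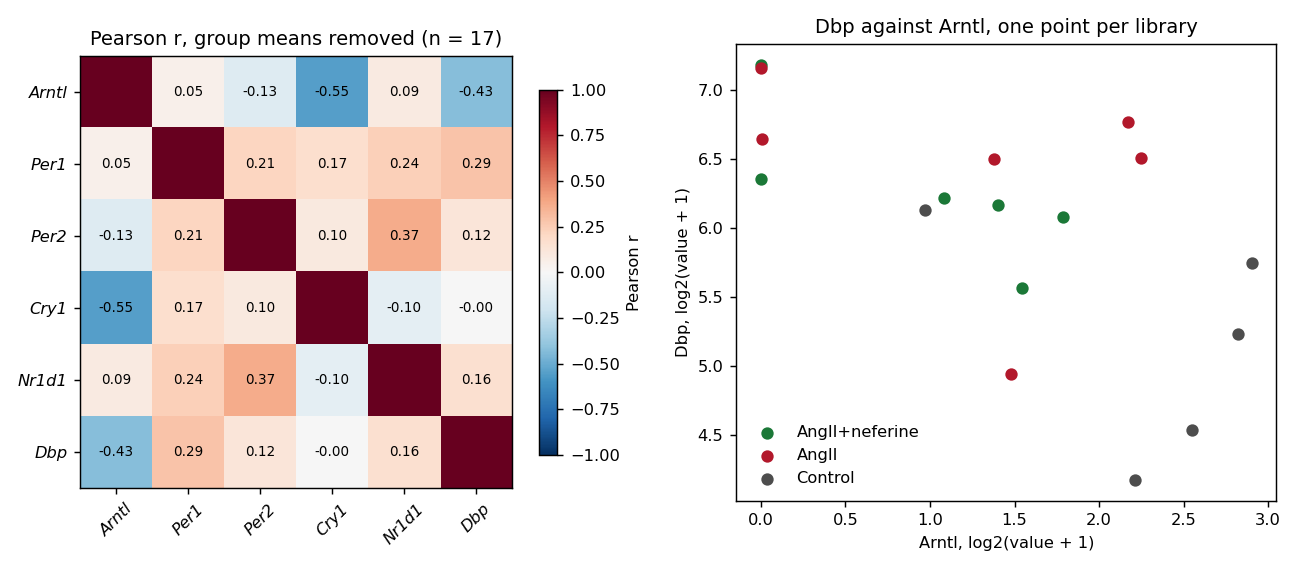
Left, Pearson r between the clock transcripts over 17 libraries on the log2(value + 1) scale after removal of the group means (color and printed number). Right, Dbp (vertical axis) against Arntl (horizontal axis), both as log2(value + 1), with 1 point per library; 4 of the 5 Control points lie to the lower right.

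The 6 clock transcripts were left out of the search for the transcripts most like Dbp and Arntl. Among the other 25934 tested transcripts with a mean of at least 1, those most like Dbp within groups were ENSMUST00000111329 (r = 0.848) and the assembled transcript MERGE.28872.1 (r = 0.821), over 17 libraries. Those most like Arntl were ENSMUST00000043922 (r = 0.765) and ENSMUST00000234506 (r = 0.751). Both were low, with means of 1.23 and 1.47 and lowest values of 0, and Arntl itself was at 0 in 3 libraries. MERGE.28872.1 was low as well, with a mean of 1.30. These r values were picked as the highest of 25934 and were not tested. Whether these most alike transcripts belong to other clock genes could not be looked up without gene names. On the list ordered by r with Arntl, Cry1 was 379 from the most negative end of 29982 transcripts and Dbp 1547. In absolute r with Arntl, 2.25% of transcripts exceeded Cry1 and 9.09% exceeded Dbp. On the list ordered by r with Dbp, Arntl was 1397 from the most negative end, and Per1, the clock transcript highest on it, was 4579 from the most positive end.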

How the data were processed

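The authors deposited 1 file per library with a linear abundance signal per transcript. No unit is named, per the file headers. The aligner, quantification tool, build and annotation were not given in the sources used here. Limma appears in the submitters' processing notes, with no role. Sample titles gave the groups and replicate numbers. The 39614 transcripts shared by all files were tested as log2(value + 1), if 5 or more libraries were at 1 or higher (29983), with limma 3.58.1 in R 4.3.3 (trended, robust moderation, all 17 libraries, no covariate), since the files hold no counts. P-values were adjusted by Benjamini-Hochberg over all tested transcripts, and a call is an adjusted p under 0.05. Log2 fold changes on this scale understate changes of low transcripts. Single transcripts were also compared by two-sided exact permutation tests over libraries. Correlations used 100000 permutations within groups (Python 3.11.15, numpy 2.4.6). No libraries were duplicates: at most 0.414% of transcripts had equal values above 0 in a pair.

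The 6 members, the tests and the libraries left out together were chosen with earlier results of these data known. All 6 members were to be named, with the 2 transcripts outside the set most like Arntl and the 2 most like Dbp by Pearson r. On simulated data with 50 transcripts changed at each size among 29983, limma recovered 22% of log2 changes of 1 and 64% of changes of 2 for AngII against Control, 20% and 64% for AngII+neferine against AngII, and 16% and 66% for AngII+neferine against Control. Alternatives covered the pseudocount, the filter, scaling, library weights, trend, the groups fitted, the replicate block and each library left out.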

Additional observations from a re-analysis of the deposited data

Results flagged for a closer look

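On the linear scale, 18 groups of 5 or 6 values were examined (6 transcripts in 3 groups). Of these, 1 held a library far from the others, where chance gives about 5%. The log2(value + 1) scale of the tests was not examined in this way. Dbp was at 145 in AngII+neferine replicate 2, and the next library of that group was replicate 5 at 81.0. Without that library the log2 fold change of Dbp between AngII+neferine and Control was 0.91 ± 0.403 (SE; limma, adjusted p = 0.549).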

How the results depend on the processing

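No clock transcript passed an adjusted p of 0.05 in any of the 27 alternatives for any comparison. Among these was the exact permutation test, which called 0 of all tested transcripts in each comparison. Of the 15 pairs, 0 were correlated after adjustment in any of the 20 alternatives run for them. The lowest adjusted p was 0.214 for a fold change and 0.101 for a correlation. Of the 18 log2 fold changes, 15 kept their direction in all 27 alternatives. Some of these alternatives alter the p-value but cannot alter a fold change. They are the fit without the filter, the fit without the trend, the fit of the compared groups alone and the exact permutation test. Leaving out a library of the group outside a comparison does not alter its fold changes either. A direction could turn only in the remaining alternatives. Without the 3 libraries standing apart, Per1 turned to 0.46 for AngII against Control and Per2 to -0.054 for AngII+neferine against AngII, and with library weights the Per2 value was -0.048; the cause was not tested. With each library left out in turn, Per2 lay between -0.017 and 0.40 for AngII against Control and between -0.19 and 0.42 for AngII+neferine against AngII. Among the 15 correlations, 9 changed sign in at least 1 alternative, and Arntl with Cry1, Arntl with Dbp and Per2 with Nr1d1 did not, although Per2 with Nr1d1 came down to 0.039 without the 3 libraries standing apart.

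Replicate numbers gave no sign of pairing over all tested transcripts. Deviations of same-numbered libraries had correlations of -0.147 to 0.064 over 16 pairs, and 1 of 17 libraries correlated best with its own number. Such a check cannot tell whether same-numbered animals were handled together. With the replicate block 0 clock transcripts were called in each comparison, and the count over all transcripts for AngII+neferine against Control was 0, against 11 without it. Over all alternatives that count lay between 0 and 106, between 0 and 12 for AngII against Control and between 0 and 15 for AngII+neferine against AngII, both 0 in the reported fit. A depth in reads is not known. The simulated recovery of 16% to 22% for log2 changes of 1 is a share over transcripts of differing spread. The simulation also held changes of up to 4, which ease the adjusted threshold, so it gives no recovery for Dbp itself.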
